A study of Mus musculus with 2 samples.

Results

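Notch signalling was described here through 9 genes, the receptors Notch1, Notch2 and Notch3, the ligands Jag1, Jag2 and Dll1, the transcription factor Rbpj and the target genes Hes1 and Hey1. The members were the rows of the gene tables that carried these symbols, and all 9 of 27998 genes were found in the matrices of both mice. The cells came from the epidermis of 2 Chrm3 KO mice, male C57BL/6J animals that lack the M3 muscarinic acetylcholine receptor (Chrm3), taken at postnatal day 0 (P0), with 1 single-cell RNA-sequencing library per mouse. No wild-type library was analysed here, so every comparison was between cell classes within the knockout and none was between genotypes. Chrm3 itself had 13 unique molecular identifiers (UMIs, counts of single RNA molecules) in the kept cells of KO mouse 1 and 19 in those of KO mouse 2, too few to check the genotype from the RNA.

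Notch receptors are single-pass membrane proteins that are bound by ligands on neighbouring cells. Binding exposes the receptor to ADAM proteases and then to the gamma-secretase complex, and the released intracellular domain enters the nucleus and joins RBPJ and Mastermind-like coactivators to switch on targets of the HES and HEY families. In the interfollicular epidermis (IFE), the sheet of skin between the hair follicles, the pathway is known for promoting the exit of keratinocytes from the basal layer and their spinous differentiation.

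Positions are on the mm10 build, and all members were annotated as protein-coding. Notch1 spans chr2:26457903-26516663 on the minus strand, Notch2 chr3:98013527-98150361 on the plus strand and Notch3 chr17:32120820-32166852 on the minus strand. The ligand genes lie at chr2:137081456-137116644 (Jag1), chr12:112907819-112929776 (Jag2) and chr17:15367354-15376872 (Dll1), all on the minus strand. Hes1 lies at chr16:30064384-30067796 and Rbpj at chr5:53466152-53657362 on the plus strand, and Hey1 at chr3:8663359-8667256 on the minus strand.

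RefSeq promoter windows on GRCm38.p6 were matched for 7 of the 9 members. The windows of 250 bases before the annotated start of Notch3 and of Dll1 are shown because these genes had the largest rise and the largest fall from the resting basal to the transitional stage. The Notch3 window is chr17:32166891-32167140 and the Dll1 window chr17:15376933-15377182, both on the minus strand, and capitals mark E-box letters (CANNTG).
Notch3 window: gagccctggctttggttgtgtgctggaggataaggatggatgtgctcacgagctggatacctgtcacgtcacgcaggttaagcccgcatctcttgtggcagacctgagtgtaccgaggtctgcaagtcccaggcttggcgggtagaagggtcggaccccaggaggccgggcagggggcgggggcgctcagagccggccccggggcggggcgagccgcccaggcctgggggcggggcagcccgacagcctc
Dll1 window: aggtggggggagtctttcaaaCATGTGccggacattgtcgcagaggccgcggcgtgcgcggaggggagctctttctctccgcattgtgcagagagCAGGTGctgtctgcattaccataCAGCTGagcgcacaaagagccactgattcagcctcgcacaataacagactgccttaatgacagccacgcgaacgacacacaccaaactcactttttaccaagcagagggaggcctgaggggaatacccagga
The Dll1 window held 3 E-box matches, which began 229, 155 and 132 bases before the start, and the Notch3 window held none. E-box letters are common, and 66.2% of 32841 RefSeq windows of the same length held at least 1. An AP-1 match (TGANTCA, found in 6.75% of windows) began 109 bases before the Dll1 start, overlapped no E-box and had no counterpart in the Notch3 window. Neither window held the RBPJ core letters GTGGGAA (5.41% of windows) or the AP-2 letters GCCNNNGGC (13.7% of windows), with both strands searched. A second Dll1 window, chr17:15375824-15376073, held 1 E-box match, 220 bases before its start, and none of the other letters. These matches describe letters only.

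Of 26683 deposited barcodes, 19488 cells passed the limits of 900 to 7700 genes and under 10% mitochondrial UMIs, 7607 from KO mouse 1 and 11881 from KO mouse 2, with median depths of 10480 and 10577 UMIs. The libraries shared 127 barcodes, of which 46 and 39 were kept. Cells were clustered without the Notch genes and grouped into named classes by fixed markers. Some names rest on few markers. Resting basal IFE included clusters of 811 and 535 cells with 1 marker each among their 10 leading genes. In these, 4 and 3 markers of the list were enriched, and the list means were 0.07 and 0.26 on the log2 scale. Dividing basal IFE included a cluster of 518 cells with 4 leading markers and a list mean of -0.39. Raw UMIs were then summed per mouse and class, so that the mouse and not the cell was the replicate, and levels are given as CPM (UMI counts scaled to a common library total) after TMM scaling. Merkel-like cells, 20 and 19 in number, were left out of the sums, and 936 and 1599 cells stayed unnamed. The 2 mice are the only replicates. The p-values rest on the spread between these animals, pooled over 28 sums of 14 classes (14 residual degrees of freedom). They do not measure the spread of the compared classes alone, and the main fit did not pair the sums of a mouse. A change was called at an adjusted p below 0.05 in edgeR's quasi-likelihood test over 13973 genes.

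The members changed in opposite directions when keratinocytes left the basal layer. From resting basal to transitional IFE, receptor and Hes1 RNA was higher and ligand RNA was lower except for Jag1. Of the 9 members, 5 were called higher, beside 13.8% of all genes tested, and 2 were called lower, beside 16.5%. The median log2 fold change of the members was 0.61, compared with -0.05 over all genes.

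**Figure D1:**
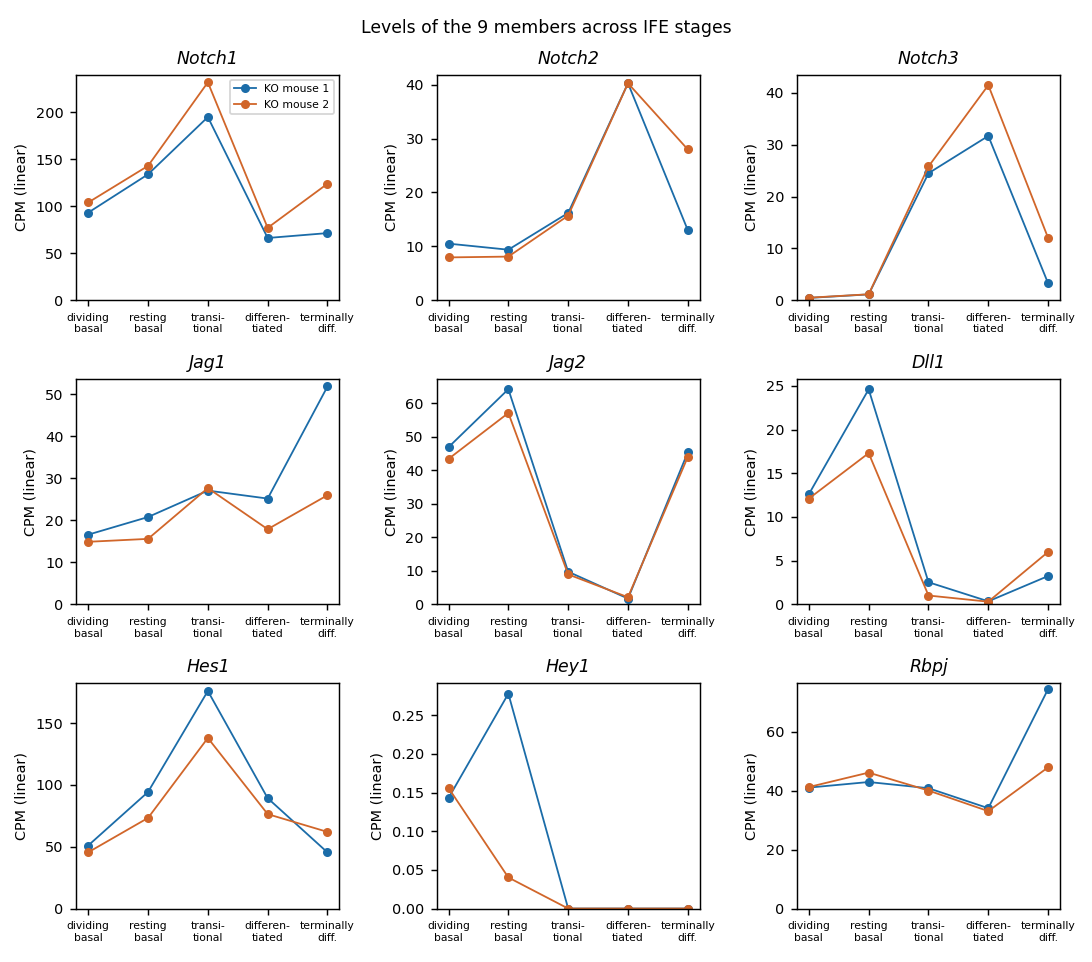
Levels of the 9 members (CPM, linear axes from 0) in 5 IFE stages, with 1 line for each of the 2 KO mice. Notch3 climbed from 1.11 and 1.13 CPM in resting basal cells to 24.5 and 25.8 CPM in transitional cells, while Jag2 dropped from 64.2 and 57.1 CPM to 9.74 and 8.94 CPM.

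Notch3 showed the widest step. It was at 1.11 CPM in resting basal cells of KO mouse 1 and 1.13 CPM in those of KO mouse 2, from 16 and 28 UMIs. In transitional cells it reached 24.5 and 25.8 CPM, from 126 and 179 UMIs. The groups were far apart in both mice, and the log2 fold change was 4.47 ± 0.249 (SE; adjusted p = 6.55e-13), or 22.2-fold. In cells thinned to 3000 UMIs each, a Notch3 UMI was seen in 0.184% and 0.357% of resting basal cells and in 5.51% and 5.78% of transitional cells. Of melanocyte-like cells thinned in the same way, 0 of 424 and 0 of 716 had a Notch3 UMI, with upper 95% exact binomial limits of 0.866% and 0.514%. Before thinning the shares were 0.915% and 0.938% in resting basal cells, at median depths of 8717.5 and 8916 UMIs, and 25.2% and 25% in transitional cells, at 13632 and 13016 UMIs.

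Notch1, a receptor known in the skin for its role in keratinocyte differentiation, was already present in resting basal cells, at 134 and 143 CPM. It was at 195 and 232 CPM in transitional cells, above both resting values, with a log2 fold change of 0.63 ± 0.161 (adjusted p = 0.00391). Under a 5% mitochondrial limit with new clusters the change was 0.28 and was not called (adjusted p = 0.297). Notch2 rose from 9.37 and 8.09 CPM to 16.2 and 15.7 CPM, a log2 fold change of 0.88 ± 0.206 (adjusted p = 0.00169).

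The ligands parted. Jag2 was at 64.2 and 57.1 CPM in resting basal cells, its highest level in any class, and at 9.74 and 8.94 CPM in transitional cells. The fall of Jag2 was -2.70 ± 0.171 on the log2 scale (adjusted p = 6.77e-12). Dll1, a Delta-type ligand, fell from 24.6 and 17.3 CPM to 2.53 and 1.01 CPM, by -3.62 ± 0.284 (adjusted p = 2.89e-10). Jag1 went the other way, from 20.8 and 15.6 CPM to 27.1 and 27.7 CPM, by 0.61 ± 0.206 (adjusted p = 0.0261). The Jag1 call was lost in DESeq2 (adjusted p = 0.0587), under the 5% mitochondrial limit (0.444) and at a clustering resolution of 1.2 (0.195).

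Hes1, a transcriptional repressor induced by Notch, rose with the receptors, from 94.3 and 73.3 CPM to 176 and 138 CPM. The log2 fold change of Hes1 was 0.91 ± 0.128 (adjusted p = 3.81e-06). Rbpj, the DNA-binding partner of the cleaved receptor, was at 43 and 46.2 CPM before and 40.9 and 40.1 CPM after the step, a log2 difference of -0.14 ± 0.102 that did not pass the test (adjusted p = 0.329). Hey1 had 4 and 1 UMIs in all resting basal cells and no UMI in transitional, differentiated or terminally differentiated cells of either mouse, which allows up to 0.584 and 0.433 CPM in transitional cells, so no change was detectable at this depth. Intervals and limits of this kind cover counting error only.

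Of 49 other pathway genes, 45 were tested in the same fit. In transitional cells 6 were called higher, beside 13.8% of all genes, and 7 lower, beside 16.5%. These counts were near the shares over all genes. Nrarp, a target gene whose product feeds back on the Notch complex, rose from 30.3 and 33.2 CPM to 104.6 and 115.2 CPM, by 1.79 ± 0.1 on the log2 scale (adjusted p = 6.55e-13). Dlk2, a non-canonical ligand, fell by 3.86 on the log2 scale, from 65.5 and 52.9 CPM to 3.51 and 4.47 CPM. Lfng, a glycosyltransferase that modifies Notch receptors, fell by 3.54, from 59.7 and 62.3 CPM to 6.43 and 4.33 CPM. Aph1c, a gamma-secretase subunit at about 1 CPM, was lower at 1 and 3 UMIs, with within-mouse ratios of 0.14 (95% counting interval 0.00338 to 0.877) and 0.413 (0.0801 to 1.35).

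Markers of the upper follicle moved with the transitional class. Its 13 markers summed to 4000 and 2927 CPM there, compared with 1391 and 1606 CPM in resting basal cells, 9 of the 13 were higher in both mice and none was at 0. The summed markers reached 26390 and 17960 CPM in the upper follicle class itself. Notch3, at 19.3 and 19.2 CPM, and Hes1, at 109 and 110 CPM, were lower in that class than in transitional cells in both mice. Notch1, at 249 and 276 CPM, and Notch2, at 38.5 and 32.3 CPM, were higher there than in transitional cells in both mice. The part of these markers in the results was not tested.

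From transitional to differentiated IFE the receptors separated. Of the 9 members, 2 were called higher, beside 14.9% of all genes, and 4 lower, beside 13.9%, with a median log2 fold change of -0.36 over the members and -0.03 over all genes. Notch2 rose to 40.3 CPM in both mice, its highest level in any class, by 1.34 ± 0.209 (adjusted p = 1.68e-05). Notch1 fell to 66.2 and 77 CPM, below its resting basal level, by -1.58 ± 0.182 (adjusted p = 1.73e-07). Notch3 was at 31.7 and 41.5 CPM, a rise of 0.54 ± 0.199 (adjusted p = 0.0415). The Notch3 call was lost without integration of the mice (adjusted p = 0.0967) and when stages were taken from the clustering of all cells (0.0575).

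The ligands that had fallen fell further. Jag2 was at 1.72 and 2.12 CPM in differentiated cells, from 5 and 7 UMIs, a change of -2.25 ± 0.379 (adjusted p = 4.39e-05). Dll1 had 1 UMI in each mouse, and its ratio to the transitional level was 0.136 (95% counting interval 0.0032 to 0.907) in KO mouse 1 and 0.3 (0.00667 to 2.34) in KO mouse 2. The fit called Dll1 (adjusted p = 0.038), but not in DESeq2 (0.0918), with the IFE stages fitted alone (0.0738) or with stages from all cells (0.251). Hes1 returned to 89.3 and 76.4 CPM, by -0.92 ± 0.14 (adjusted p = 1.17e-05), which overlapped its resting basal values. Jag1, at 25.2 and 17.9 CPM (log2 difference -0.36, adjusted p = 0.317), and Rbpj, at 34.1 and 33.1 CPM (-0.27, adjusted p = 0.103), did not pass the test.

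Among the 45 other pathway genes tested, 5 were called higher, beside 14.9% of all genes, and 8 lower, beside 13.9%. Adam17, a sheddase of several membrane proteins, rose by 0.98 ± 0.18 (29 and 24 CPM compared with 13.1 and 13.6 CPM; adjusted p = 0.000129). Dlk2 fell by 1.64 to 1.03 and 1.52 CPM, and Dtx3, of the Deltex family, fell by 1.17 to 3.45 and 4.55 CPM.

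The terminally differentiated class held only 43 and 48 cells with median depths of 4080 and 8668 UMIs, and its values rest on few molecules. Compared with differentiated IFE, 3 members were called higher, beside 14.2% of all genes, and 1 lower, beside 13.7%, with a median log2 fold change of 0.52 and 0 over all genes. Jag2 was at 45.4 and 44 CPM, from 14 and 22 UMIs, a log2 fold change of 4.51 ± 0.451 (adjusted p = 2.13e-08). Notch3 was at 3.24 and 12 CPM, from 1 and 6 UMIs, lower by -2.09 ± 0.469 (adjusted p = 0.00122), with a ratio of 0.102 (95% counting interval 0.00256 to 0.584) in KO mouse 1. Fitted fold changes of such low counts depend on the prior count. Rbpj was at 74.6 and 48 CPM, higher by 0.80 ± 0.198 (adjusted p = 0.00739).

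Dll1 was called higher as well (adjusted p = 0.0152), from 1 and 3 UMIs against 1 and 1, with ratios of 9.41 (95% counting interval 0.12 to 738) and 19.8 (1.59 to 1040). Notch1 (71.4 and 124 CPM; adjusted p = 0.181), Notch2 (13 and 28 CPM; 0.105), Jag1 (51.9 and 26 CPM; 0.216) and Hes1 (45.4 and 62 CPM; 0.0934) did not pass the test. Of the 45 other pathway genes tested, 7 were called higher, beside 14.2% of all genes, and 8 lower, beside 13.7%. They included Dlk2 at 13 and 20 CPM (log2 fold change 3.73), Lfng at 29.2 and 28 CPM (3.55), Dtx3 at 16.2 and 20 CPM (2.20) and the gamma-secretase subunit Aph1b at 3.24 and 4 CPM (-2.11).

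Markers of other cells moved with this class too. Compared with differentiated IFE, 24 of 24 dividing-cell markers, 23 of 24 hair follicle markers, 10 of 10 melanocyte markers and 12 of 15 basal markers were higher in both mice. The hair follicle list summed to 1681 and 1357 CPM compared with 167.3 and 227.8 CPM, and its only marker at 0 was Foxd1. The basal list summed to 8641 and 11350 CPM compared with 2735 and 3405 CPM, and the melanocyte list to 336.2 and 467.2 CPM compared with 31.46 and 134.2 CPM, and neither had a marker at 0. Jag2, Dll1, Dlk2 and Lfng were all at higher levels in resting basal cells than in differentiated cells, and the part of these markers in their rise was not tested.

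In dividing basal cells, Hes1, Dll1, Jag2 and Notch1 were lower than in resting basal cells. None of the 9 members was called higher, beside 8.67% of all genes, and 4 were called lower, beside 5.77%. Their median log2 fold change was -0.43, compared with -0.04 over all genes. Hes1 was at 51 and 45.5 CPM in dividing cells and lower by -0.80 ± 0.132 (adjusted p = 7.08e-05). Dll1 was at 12.6 and 12.1 CPM, lower by -0.75 ± 0.186 (adjusted p = 0.0057). Jag2 was at 46.9 and 43.4 CPM, lower by -0.43 ± 0.133 (adjusted p = 0.0287).

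Notch1, at 93.2 and 104 CPM in dividing basal cells, was lower by -0.49 ± 0.163 (adjusted p = 0.0409), and this call was lost when predicted doublets were left out (0.0508). The calls of Jag2 (adjusted p = 0.0555) and Dll1 (0.346) were lost under the 5% mitochondrial limit. Notch3 had 3 and 6 UMIs (adjusted p = 0.0877), Notch2 was at 10.5 and 7.94 CPM (0.923), Jag1 at 16.6 and 14.9 CPM (0.596) and Rbpj at 41.1 and 41.3 CPM (0.502), and none of these passed the test. Of the 45 other pathway genes tested, 2 were called higher, beside 8.67% of all genes, and 6 lower, beside 5.77%. Neurl1b, a ubiquitin ligase that acts on ligands, rose from 7.64 and 7.81 CPM to 13.6 and 18.8 CPM (log2 fold change 1.09), and Nrarp rose from 30.3 and 33.2 CPM to 41.6 and 44.3 CPM (0.43). Dlk2 fell by 0.65 to 43.2 and 32.7 CPM, the Mastermind family member Maml3 fell by 0.45 to 40 and 47 CPM and the HES family member Hes6 fell by 0.43 to 24.2 and 27.7 CPM.

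Among resting basal cells, the subtypes basal 1, led by H19 and Igf2, and basal 2, led by Pcsk2 and Lef1, were compared in a second fit over 11063 genes, in which 8 of the 9 members were tested and Hey1 was not. No member was called in either direction, beside 3.77% of all genes higher and 4.99% lower in basal 2, while 3 were called once the mouse was added as a block, in a fit that called 25.5% of all genes in either direction. In that blocked fit Jag2 was lower in basal 2 by -0.32 (adjusted p = 0.00277), Dll1 lower by -0.45 (0.0171) and Rbpj higher by 0.38 (0.00266). The levels behind them were 70.1 and 68.2 CPM in basal 1 and 61.9 and 50.6 CPM in basal 2 for Jag2, 30.4 and 21.7 CPM and 25.1 and 14.1 CPM for Dll1, and 39.2 and 38.1 CPM and 48.2 and 51.2 CPM for Rbpj. Jag2 and Rbpj did not overlap between the subtypes and Dll1 did.

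Of 37 other pathway genes tested in this fit, 5 were called higher in basal 2, beside 3.77% of all genes, and 5 lower, beside 4.99%. Dlk2 fell by 0.75, from 93.4 and 74.7 CPM to 59.4 and 41.5 CPM, and Dtx3 rose by 0.67, from 13.2 and 12.1 CPM to 19.3 and 20.7 CPM. Neurl1b had 14 and 15 UMIs in basal 2 and 0 and 2 in basal 1, a ratio of at least 2.94 (lower 95% counting limit) in KO mouse 1 and 6.06 times (95% counting interval 1.41 to 54.6) the level in KO mouse 2. Dtx4 was at 1.12 and 0.398 CPM in basal 2 and 4.56 and 2.30 CPM in basal 1, lower by 2.23 on the log2 scale.

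The cells matching the study's basal aberrant markers, led here by Ptch1 and Rhoc, were compared with the average of basal 1 and basal 2. From cell cycle scoring, the paper proposes that its aberrant cluster was in S phase. Here a cluster led by E2f1, Rrm2 and Mcm3 was instead placed with dividing basal IFE, so the aberrant cells may differ from the paper's. No member was called higher, beside 7.12% of all genes, and 2 were called lower, beside 5.26%. The median log2 fold change of the members was -0.43, compared with -0.01 over all genes. Notch1 was at 96.9 and 99.8 CPM, compared with 148 and 159 CPM in basal 1 and 170 and 164 CPM in basal 2, and was lower by -0.70 ± 0.076 (adjusted p = 0.000312). Jag2 was at 45.8 and 47.5 CPM, lower by -0.41 ± 0.109 (adjusted p = 0.0361), and this call was lost in DESeq2 (0.142), without integration (0.198) and at resolution 1.2 (0.0782).

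With the mouse as a block, 4 members were called in the aberrant cells, beside 25.3% of all genes in either direction. Dll1, at 10.5 and 12.9 CPM, was lower by -0.80 (adjusted p = 0.000232, compared with 0.0666 without the block). Hes1, at 77.7 and 54.7 CPM, was lower by -0.42 (8.18e-05, compared with 0.25). DESeq2 called Dll1 as well (0.0321). Without the block, 2 of 37 other pathway genes were called higher, beside 7.12% of all genes, and 3 lower, beside 5.26%. Maml2 was at 19.2 and 15.8 CPM (log2 fold change 0.90) and Dlk2 at 40.6 and 36.9 CPM (-0.75). Nrarp was at 48 and 41.9 CPM (0.58). Fbxw7, which marks the Notch intracellular domain for degradation, was at 33.6 and 42.9 CPM (-0.52).

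**Figure D2:**
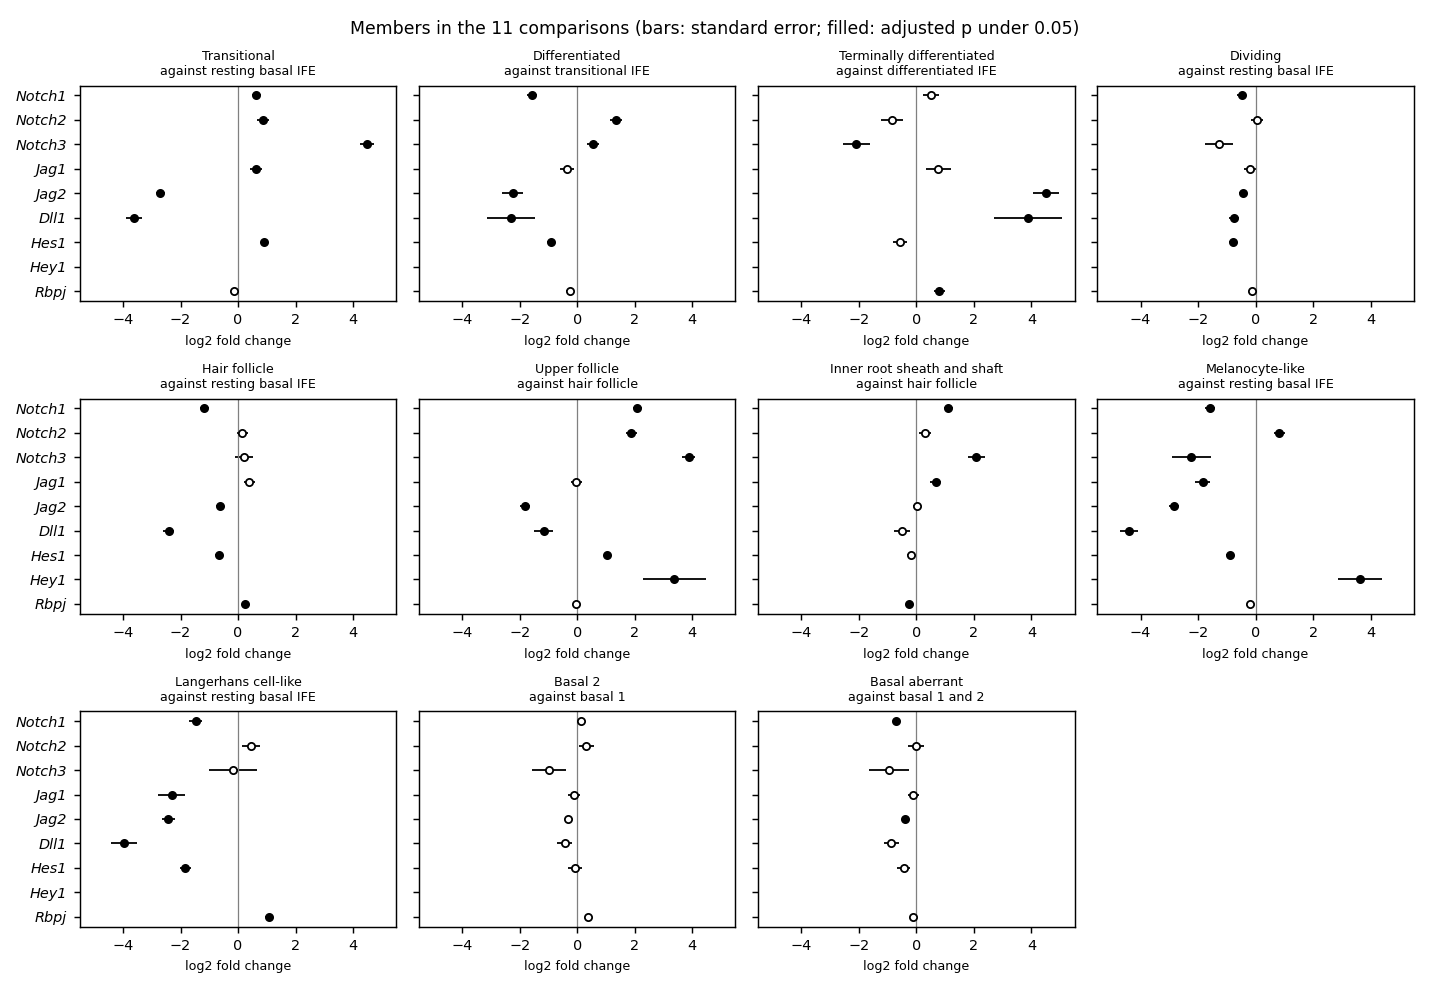
Log2 fold changes of the members in the 11 comparisons, with standard errors as bars and filled points where the adjusted p was below 0.05. Hey1 is drawn only for the upper follicle and melanocyte-like comparisons. Notch3 reached 4.47 in transitional IFE and 3.87 in the upper follicle, and Dll1 lay at -3.62 and -1.17 in the same panels.

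Hair follicle keratinocytes outside the dividing follicle class were compared with resting basal IFE. They still held more RNA of the division marker Mki67, at 49.7 and 46.8 CPM compared with 10.3 and 16 CPM. The part of division in the results was not tested. Of the 9 members, 1 was called higher, beside 18.7% of all genes, and 4 lower, beside 16.7%. Their median log2 fold change was -0.63, compared with -0.01 over all genes. Dll1 differed most, at 3.42 and 4.22 CPM in follicle cells, lower by -2.42 ± 0.193 (adjusted p = 1.92e-10). Notch1 was at 54 and 69.2 CPM, lower by -1.17 ± 0.162 (adjusted p = 2.1e-06). Jag2 was at 37.5 and 40.7 CPM, lower by -0.63 ± 0.128 (adjusted p = 0.000312).

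Hes1 was at 52.1 and 52.9 CPM in these cells and lower by -0.67 ± 0.126 (adjusted p = 0.000132). Rbpj was the member called higher, at 51.5 and 54.7 CPM, by 0.25 ± 0.092 (adjusted p = 0.0356), and this call was lost without the filter on low counts (0.135), under the 5% mitochondrial limit (1) and at resolution 1.2 (0.262). The Jag2 call was lost under the 5% limit (0.0649). Jag1, at 27.2 and 20.1 CPM, differed by 0.39 ± 0.186 (adjusted p = 0.115), and passed with the mouse as a block (0.0131). Notch2, at 8.72 and 10.3 CPM (adjusted p = 0.586), and Notch3, at 1.02 and 1.51 CPM (0.652), did not pass the test.

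In follicle cells, 4 of 45 other pathway genes were called higher, beside 18.7% of all genes, and 9 lower, beside 16.7%. Dlk2 fell by 1.62 to 18.6 and 19.9 CPM, the Deltex member Dtx2 by 1.31 to 11.4 and 12.5 CPM and the Numb-like gene Numbl by 1.11 to 17.7 and 16.4 CPM. Heyl, of the HEY family, was under 1 CPM in both classes, with 8 UMIs against 1 in KO mouse 1 (ratio 6.17, 95% counting interval 0.827 to 274).

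The hair follicle class joined 3 clusters, over which Jag1 ranged from 7.15 to 46.9 CPM. Of 24 hair follicle markers, 18 were higher in this class than in resting basal cells in both mice. The clusters led by Sfrp1 and by Ncam1 took the name from few markers. In each, 5 markers were enriched over the other cells, and the list means were -0.11 and -0.3 on the log2 scale. Levels in this paragraph are CPM of plain cluster totals, described without a test. Jag1 was at 9.52 and 7.15 CPM in the cluster led by Ncam1, Bdnf and Nfatc1, at 34.1 and 23 CPM in that led by Sfrp1 and Lgr5 and at 46.9 and 33.7 CPM in that led by Shh and Sp5. It was higher still, at 58.7 and 41.5 CPM, in an unnamed cluster led by Tagln and Foxe1, in which Notch1 was lowest, at 14.1 and 26 CPM. Jag2 ranged from 31.6 to 58.3 CPM over these 4 clusters. Notch1 was at 35.5 and 56.3 CPM in the Sfrp1 cluster, 65.4 and 85.7 CPM in the Ncam1 cluster and 89 and 86.4 CPM in the Shh cluster.

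**Figure D3:**
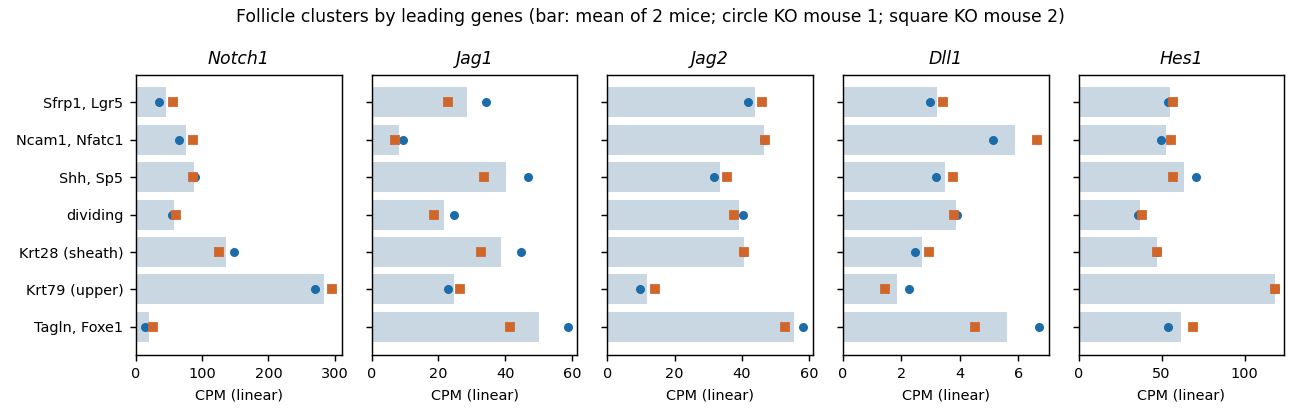
Levels of 5 members (CPM, linear axes from 0) in 7 clusters labelled by leading genes, with bars for the mean of the 2 mice and points for each. The Tagln cluster stayed unnamed, and the others belong to the follicle classes. Jag1 ran from 9.52 and 7.15 CPM in the Ncam1 cluster to 58.7 and 41.5 CPM in the Tagln cluster, and Notch1 and Hes1 were highest in the Krt79 cluster.

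In the upper follicle, led by Krt79, the receptors and Hes1 were higher and Jag2 and Dll1 lower than in the hair follicle class. Of the 9 members, 5 members were called higher, beside 20.2% of all genes, and 2 lower, beside 20.4%. The median log2 fold change was 1.05 over the members and -0.05 over all genes. Notch1 was at 249 and 276 CPM, its highest level in any class, higher by 2.09 ± 0.166 (adjusted p = 1.77e-10). Notch2 was at 38.5 and 32.3 CPM, higher by 1.88 ± 0.18 (adjusted p = 4.32e-09). Notch3 was at 19.3 and 19.2 CPM, higher by 3.87 ± 0.239 (adjusted p = 1.73e-12).

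Hes1 was at 109 and 110 CPM in the upper follicle, higher by 1.05 ± 0.13 (adjusted p = 3.05e-07). Jag2 was at 9.04 and 13.1 CPM, lower by -1.82 ± 0.164 (adjusted p = 1.68e-09). Dll1 was at 2.07 and 1.34 CPM, lower by -1.17 ± 0.323 (adjusted p = 0.00498), a call lost under the 5% mitochondrial limit (0.108). Jag1, at 21.2 and 24.7 CPM (log2 difference -0.03 ± 0.202), and Rbpj, at 52.7 and 50.5 CPM (-0.04 ± 0.097), did not pass the test (adjusted p = 0.928 and 0.774). Hey1, the fifth of the members called higher (adjusted p = 0.0201), had 6 and 2 UMIs, a ratio of at least 3.26 (lower 95% counting limit) in KO mouse 1 and 4.24 times (95% counting interval 0.307 to 58.5) the level in KO mouse 2.

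Nrarp and Heyl were also higher. Among the 45 other pathway genes tested, 15 were called higher in the upper follicle, beside 20.2% of all genes, and 6 lower, beside 20.4%. Nrarp was at 213.3 and 218.3 CPM compared with 26.1 and 30.1 CPM, higher by 2.93 ± 0.1 (adjusted p = 5.24e-17). Heyl was at 26.7 and 19.7 CPM compared with 0.428 and 0.878 CPM, higher by 5.04 ± 0.342 (adjusted p = 2.97e-11). Aph1c, at 5.18 and 4.32 CPM (log2 fold change 2.54), and Dtx4, at 7.55 and 9.08 CPM (2.17), rose too.

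In the inner root sheath and shaft class, led by Krt28 and Krt35, Notch1 and Jag1 were both higher than in the other hair follicle cells. Of the 9 members, 3 were called higher, beside 19.9% of all genes, and 1 lower, beside 20.4%, with a median log2 fold change of 0.30 over the members and -0.02 over all genes. Notch1 was at 143 and 124 CPM, higher by 1.11 ± 0.166 (adjusted p = 5.93e-06). Notch3 was at 6.1 and 5.2 CPM, higher by 2.08 ± 0.286 (adjusted p = 1.68e-06). Jag1 was at 43.2 and 32.3 CPM, higher by 0.67 ± 0.191 (adjusted p = 0.00664).

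Division markers moved with the sheath class. Of 24 dividing-cell markers, 22 were higher in both mice than in the hair follicle class and none was at 0, and the list summed to 6086 and 6583 CPM compared with 1347 and 1402 CPM. Mki67 was at 516 and 524 CPM compared with 49.7 and 46.8 CPM, and the part of these markers in the results was not tested.

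The Jag1 call in the sheath class was lost under the 5% mitochondrial limit (adjusted p = 0.598) and at resolution 1.2 (0.26). Rbpj was at 44.9 and 44.3 CPM, lower by -0.25 ± 0.098 (adjusted p = 0.0413), and was not called without the filter on low counts (0.119), under the 5% limit (0.241) or at resolution 1.2 (0.0669). Jag2 (39.2 and 40.4 CPM), Notch2 (12.4 and 11.4 CPM), Dll1 (2.4 and 2.92 CPM) and Hes1 (45.5 and 46.8 CPM) did not pass the test (adjusted p = 0.915, 0.26, 0.168 and 0.298). Of the 45 other pathway genes tested, 8 were called higher, beside 19.9% of all genes, and 10 lower, beside 20.4%. Heyl was at 4.99 and 5.96 CPM (log2 fold change 2.98), Dlk2 at 2.59 and 3.79 CPM (-2.53) and Dtx3l at 0.37 and 0.542 CPM (-2.17). Dtx4 had 0 and 1 UMIs against 33 and 54 in the other follicle cells, a ratio of at most 0.409 (upper 95% counting limit) in KO mouse 1 and 0.0571 times (95% counting interval 0.00142 to 0.332) the level in KO mouse 2.

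**Figure D4:**
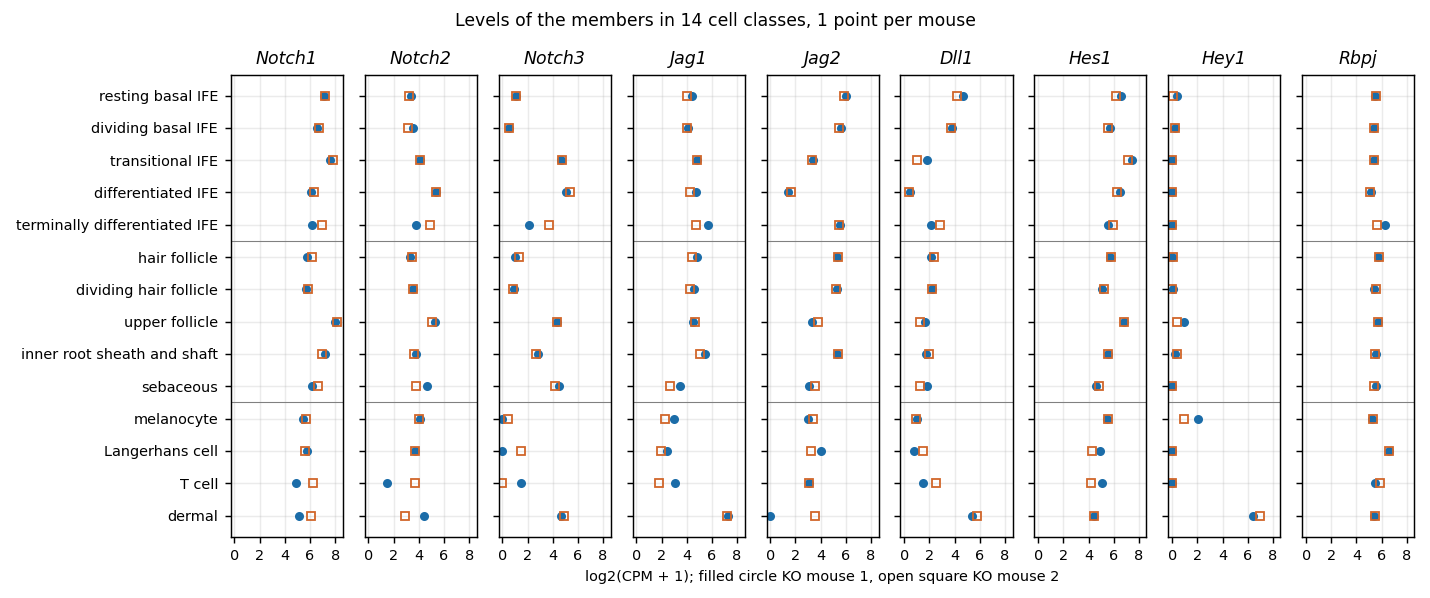
Levels of the 9 members as log2(CPM + 1) in 14 cell classes, with 1 point per mouse and lines that part IFE, follicle and sebaceous, and other cells. Hey1 reached 85.2 and 122 CPM in the dermal class and at most 3.06 CPM elsewhere.

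Melanocyte-like cells, pigment cells of the follicle and epidermis, had lower ligand levels than resting basal cells. Compared with resting basal IFE, 2 members were called higher, beside 29.2% of all genes, and 6 lower, beside 23.6%. The median log2 fold change was -1.60 over the members and 0.02 over all genes. Notch2 was at 15.7 and 15.1 CPM, higher by 0.83 ± 0.204 (adjusted p = 0.00125). Hey1 was called higher too (adjusted p = 0.000502), from 15 and 8 UMIs against 4 and 1. It was at 1100% of its resting basal level in KO mouse 1, with a ratio of 23.5 (95% counting interval 3.15 to 1040) in KO mouse 2. The Hey1 call was lost under the 5% mitochondrial limit (0.263).

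In droplet data, free RNA can give keratinocyte UMIs in other cells, so the basal keratins Krt14 and Krt5 were taken as a reference. Krt14 was lower in hair follicle cells (2470 and 2860 CPM) than in resting basal cells (13900 and 14600 CPM). Jag1 was not lower there (27.2 and 20.1 CPM compared with 20.8 and 15.6 CPM). For genes also present in the follicle, a level above the keratins cannot tell expression from free RNA. Krt14 in melanocyte-like cells was at 5.81% and 8.49% of its resting basal level, and Krt5 at 6.01% and 8.81%. Dll1, from 5 and 8 UMIs, was at 4.15% and 5.47% of its basal level. These values lay below the keratins in both mice, so no expression above this reference was seen at these low counts. Jag2 stood at 11.1% and 16.1%, Jag1 at 33.3% and 24.2%, Notch1 at 31.3% and 34.4% and Hes1 at 45.6% and 63.8%, all above the keratins. Their calls were Notch1 -1.60 (adjusted p = 1.75e-08), Jag1 -1.84 (2.26e-06), Jag2 -2.85 (1.77e-13), Dll1 -4.39 (3.61e-12) and Hes1 -0.89 (4.02e-06) on the log2 scale.

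The Jag2 UMIs of melanocyte-like cells lay mostly in the smaller of its 2 clusters. That cluster of 275 cells had Jag2 at 16.4 and 20.8 CPM and the larger one of 889 cells at 2.1 and 3.06 CPM. Notch3 had 0 and 3 UMIs in all melanocyte-like cells and none in the larger cluster, with a ratio to resting basal cells of at most 0.761 (upper 95% counting limit) in KO mouse 1 and 0.315 times (95% counting interval 0.0613 to 1.02) the level in KO mouse 2, and its call (adjusted p = 0.0066) was lost under the 5% limit (0.148). Rbpj, at 37.5 and 39.3 CPM (log2 difference -0.21 ± 0.101; adjusted p = 0.0781), passed with the mouse as a block (0.0139). Of the 1164 melanocyte-like cells, 42 and 87 were predicted doublets. The 24 dividing-cell markers summed to 2404 and 2303 CPM here, compared with 532.5 and 627.7 CPM in resting basal cells, with 23 higher in both mice, and their part in the results was not tested.

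In melanocyte-like cells, 10 of 45 other pathway genes were called higher, beside 29.2% of all genes, and 12 lower, beside 23.6%. Psen2, a catalytic subunit of gamma-secretase, was at 115.8 and 125.8 CPM compared with 2.50 and 2.82 CPM, higher by 5.48 ± 0.223 (adjusted p = 8.97e-17). Hey2 had 4 and 8 UMIs against none in resting basal cells, with lower 95% counting limits of the ratio of 1.94 and 5.02. Heyl was at 4.69 and 2.48 CPM, from 23 UMIs against 1 in KO mouse 1 (ratio 67.5, 95% counting interval 11 to 2780). Resting basal cells of KO mouse 2 held 4 Heyl UMIs, so the ratio of KO mouse 1 does not stand for both mice. The imprinted ligand-like gene Dlk1 had 3 and 23 UMIs against 1 and 1, with ratios of 8.81 (0.707 to 462) and 67.6 (11 to 2780).

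**Figure D5:**
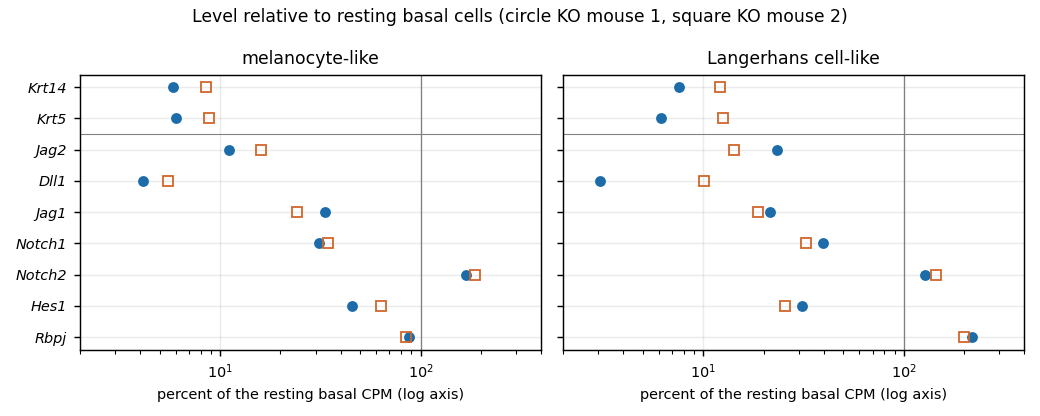
Level of 7 members and of the basal keratins Krt14 and Krt5 in melanocyte-like and Langerhans cell-like cells, as a percent of the resting basal CPM of the same mouse (log axis). In melanocyte-like cells Krt14 lay at 5.81% and 8.49%, Dll1 at 4.15% and 5.47% and Notch2 at 168% and 187%.

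Rbpj was highest in Langerhans cell-like cells, the antigen-presenting cells of the epidermis. It was at 93.6 and 92.3 CPM, above every other class in both mice, and higher than in resting basal IFE by 1.06 ± 0.111 (adjusted p = 9.02e-09). It was the 1 member called higher, beside 26.1% of all genes, and 5 were lower, beside 24%, with a median of -1.83 over the members and -0.08 over all genes. Those lower were Notch1 (-1.48, adjusted p = 1.43e-06), Jag1 (-2.31, 0.000185), Jag2 (-2.43, 1.6e-09), Dll1 (-3.97, 5.62e-08) and Hes1 (-1.83, 1.24e-08). Krt14 was at 7.55% and 12.1% of its basal level here, Dll1 at 3.04% and 10.1%, Jag2 at 23.4% and 14.3% and Jag1 at 21.6% and 18.7%. The measured Dll1 level thus lay below Krt14 in both mice and the other ligands above it. These levels came from few UMIs, 1 and 3 for Dll1, 20 and 14 for Jag2 and 6 and 5 for Jag1. Counting intervals of the Dll1 ratio to resting basal cells were 0.00077 to 0.171 in KO mouse 1 and 0.0208 to 0.299 in KO mouse 2. Both intervals include the Krt14 level of the same mouse, so the counts cannot place Dll1 below or above Krt14. As in melanocyte-like cells, this reference cannot tell expression of Jag1 or Jag2 from free RNA. Dividing-cell markers summed to 775 and 971.8 CPM, with 16 of 24 higher than in resting basal cells in both mice, and their part in the results was not tested.

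Notch2, at 12 and 11.7 CPM in Langerhans cell-like cells (adjusted p = 0.265), and Notch3, with 0 and 3 UMIs (0.88), did not pass the test. Of the 45 other pathway genes tested, 13 were called higher, beside 26.1% of all genes, and 12 lower, beside 24%. Mfng, of the Fringe glycosyltransferases, was at 28.5 and 21 CPM from 38 and 36 UMIs, against 1 and 2 UMIs in resting basal cells, with ratios of 410 (95% counting interval 69.3 to 16600) and 261 (67.2 to 2240). Psen2, at 47.2 and 57.2 CPM, was higher by 4.28, Aph1c, at 39.7 and 38.5 CPM, by 5.03 and Neurl1a, at 11.2 and 9.93 CPM, by 4.04 on the log2 scale.

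The dermal class, of 39 and 68 cells led by Ebf1, Rspo3 and Twist1, held 47.2% and 76.3% of the Hey1 UMIs counted over the 14 classes. These values were described without a test, since Hey1 passed the filter on low counts through this class. Hey1 had 25 and 58 UMIs there, at 85.2 and 122 CPM, and at most 15 UMIs in any other class of either mouse. Jag1 was at 157 and 143 CPM and Dll1 at 40.9 and 54.8 CPM, the highest level of both ligands. Notch3 was at 23.9 and 29.5 CPM, while Jag2 had 0 and 5 UMIs.

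The remaining classes were described by level. Dividing hair follicle cells had Notch1 at 49.9 and 57.4 CPM, Jag2 at 37.5 and 36 CPM and Hes1 at 33.3 and 36.5 CPM. Sebaceous cells had Notch3 at 21.5 and 17 CPM, overlapping the upper follicle values, and Hes1 at 23 and 27.1 CPM. T cell-like cells, 52 and 38 in number, had Notch1 at 28.8 and 72.4 CPM and Hes1 at 32.4 and 16.9 CPM, with the mice far apart.

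Ordered by mean level, Notch1 ran from the upper follicle (262.3 ± 19 CPM, SD, n = 2) and transitional IFE (213.8 ± 26.4 CPM) to resting basal IFE (138.7 ± 6.09 CPM) and the inner root sheath (133.2 ± 13.6 CPM), and the last pair overlapped between mice. Notch2 was highest in differentiated IFE and then in the upper follicle (35.4 ± 4.38 CPM), without overlap, and the classes from the third to the seventh rank overlapped with their neighbours. Notch3 was highest in differentiated IFE (36.6 ± 6.95 CPM), followed by the dermal class (26.7 ± 4 CPM) and transitional IFE (25.2 ± 0.9 CPM), which overlapped. For Jag2, resting basal IFE (60.7 ± 5.01 CPM) stood apart from dividing basal IFE (45.2 ± 2.43 CPM), which overlapped the terminally differentiated class. Hes1 was highest in transitional IFE (157 ± 26.7 CPM), then in the upper follicle (109.2 ± 0.626 CPM), and resting basal and differentiated IFE overlapped. For Rbpj, the Langerhans cell-like class stood apart and the classes ranked next overlapped each other.

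Across the 14 classes, the genes with patterns most like each member were found by Pearson's r of log2(mean CPM + 10), given as a description because the classes share libraries and depth. Hes1 resembled Notch1 with r = 0.79, and Notch2 resembled Notch3 with r = 0.74, while Jag2 and Notch3 ran opposite (r = -0.60). Hey1 resembled Dll1 (r = 0.78) and Jag1 (0.74), and Jag1 resembled Dll1 (0.65), genes that were all highest in the dermal class. Of all genes, the 3 most like Notch1 were Ankrd11 (r = 0.885), Tet3 (0.867) and Bcl9l (0.86), and those most like Hes1 were Setd7 (0.92), Itpkc (0.897) and Smim6 (0.878). Notch2 was most like Bspry (0.951), Atp2c2 (0.942) and Cldn4 (0.941), and Notch3 most like Zfp692 (0.922), Ppp3r1 (0.896) and Kdm5b (0.892). Jag2 followed Efemp1 (0.947), Lama5 (0.946) and Ankrd6 (0.936), and Jag1 followed Efna2 (0.927), Cd24a (0.913) and Mapre3 (0.91). Dll1 was most like Unc5c (0.954), Nox4 (0.943) and Triqk (0.938), Hey1 most like Vipr2, Glis3 and Tnfaip6 (each at least 0.999, through the dermal class) and Rbpj most like Gm26759 (0.914), Abtb1 (0.891) and BC005537 (0.889).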

How the data were processed

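Single-cell RNA was measured in the epidermis of 2 Chrm3 KO mice. The authors deposited raw UMI counts per gene and cell barcode for each mouse, made with Cell Ranger 3.0.2 on mm10, and these counts were used as deposited. A cell was kept if it had between 900 and 7700 detected genes and less than 10% of its UMIs from mitochondrial genes. Mice were integrated and clustered in Seurat 5.3.0 (R 4.3.3; 2000 variable genes, 30 components, resolution 0.8), with the Notch genes left out of the variable genes. IFE cells were clustered again. Clusters were named from fixed markers, but the rules for naming were set after the clusters had been seen, and 22.09% and 21.48% of IFE cells stayed unnamed. Class membership was rebuilt here and may differ from the study's. Doublets were predicted with Scrublet in scanpy 1.11.5 and kept in the main sums.

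UMI counts were summed per mouse and class, 28 sums of 14 classes in the first fit and 8 sums of 4 basal subtypes in the second, and tested with edgeR 4.0.16 (TMM, filterByExpr, quasi-likelihood, Benjamini-Hochberg over all genes). Residual degrees of freedom were 14 in the first fit and 4 in the second. The standard errors are on the log2 scale. Comparisons that share resting basal or hair follicle sums are not independent of each other. The sums of one mouse pair across classes, since 1 animal gave each library, and the mouse was used as a block in an alternative fit. Over 91 pairs of classes, the differences between the mice correlated with r from -0.01 to 0.37 (median 0.07). Each class in the fit held from 207118 to 26742310 UMIs per mouse. The code was tested on simulated data with 200 genes changed by 2 on the log2 scale. It recovered 54.5% of them in the terminally differentiated comparison, the lowest share, and 80.5% to 96% in the other comparisons.

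The members and gene lists were chosen with earlier results of these data known. The 9 members are named in every comparison, and of the other pathway genes up to 4 per comparison, those called with the largest absolute log2 fold change (in dividing cells, 2 tied). One gene that this rule names is not reported here. Alternatives were DESeq2 1.42.0, its size factors, no filter on low counts, doublets left out, a 5% mitochondrial limit, no integration, resolution 1.2, other IFE staging, each mouse alone and, added after seeing the data, cells of shared barcodes left out. Levels of different genes were not compared.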

Additional observations from a re-analysis of the deposited data

How the results depend on the processing

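Of 588 values of called member changes under the alternatives, 533 were labelled stable. Where a test was run, this meant the same direction and side of the threshold. With 1 mouse left out there was no test, and 39 and 37 of the 533 lay within the spread between mice. Another 27 lost the call, and 28, all with 1 mouse left out, moved beyond that spread. The spread was taken from the same 2 values, and the estimate from both mice lies near their middle. A value within it was thus nearly fixed in advance. Neither these values nor those that moved measure stability. Of 440 values for changes not called, 387 were labelled stable in this sense, 33 and 33 of them without a test. A further 23 passed, 14 changed sign and 16 moved. With the mouse as a replicate block, the genes called became 3454 (2017 without it) in dividing basal cells, 2821 (969) in basal 2 and 2794 (1370) in aberrant cells, the share called higher in dividing cells went from 60% to 49.9%, and the members called became 3 (0) in basal 2 and 4 (2) in aberrant cells. Beyond Jag1 in the hair follicle, Rbpj in melanocyte-like cells, Jag2, Dll1 and Rbpj in basal 2 and Dll1 and Hes1 in aberrant cells, the block changed no call of a member. The 5% mitochondrial limit left 2204 genes called (4236) in transitional, 1296 (2017) in dividing, 2981 (4939) in hair follicle and 4620 (7376) in melanocyte-like cells, from fewer cells. Under this limit Notch1 and Jag1 lost their calls in transitional, Jag2 and Dll1 in dividing, and Jag2 and Rbpj in hair follicle cells. Dll1 lost its call in the upper follicle, Jag1 and Rbpj in the inner root sheath, and Notch3 and Hey1 in melanocyte-like cells. DESeq2 called 544 genes in basal 2 and 851 in aberrant cells. Without the filter on low counts 1623 genes were called in basal 2, and Dll1 (adjusted p = 3.78e-05) and Hes1 (0.000383) gained a call in aberrant cells. Without integration Rbpj gained a call in basal 2 (0.0318) and Jag2 lost its call in aberrant cells (0.198). Resolution 1.2 gave 869 genes in aberrant cells, where Jag2 lost its call, and Jag1 and Rbpj lost their calls in the inner root sheath. Changes of sign, all in uncalled values, were Notch3 in the hair follicle (-0.22 at 5%, -0.53 at resolution 1.2), Rbpj in the upper follicle (0.07 at 5% and at resolution 1.2, 0.01 without integration), Jag2 in the inner root sheath (-0.02 with DESeq2, its size factors, the 5% limit and no integration), Hes1 in basal 2 (0.13 at resolution 1.2), Notch2 in aberrant cells (0.01 with the block and at resolution 1.2) and Hey1 in dividing cells (-3.78 at 5%, -0.55 without integration). Other calls gained were Notch1, Notch2 and Hes1 in terminally differentiated, Notch3 in dividing and Langerhans cell-like, and Dll1 in inner root sheath cells. Besides the block, Jag1 in the hair follicle passed without the filter on low counts (adjusted p = 0.0304) and without integration (0.0175). Rbpj in melanocyte-like cells also passed with DESeq2 (0.0351) and at resolution 1.2 (0.00949). The causes were not tested. The 5% limit gave no comparison with differentiated cells or between basal subtypes, and resolution 1.2 none with differentiated or dividing basal cells, for lack of a named class. Leaving out cells of shared barcodes changed no call. Depth limits Hey1 outside the dermal class and Dll1 and Notch3 wherever they had few UMIs.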
